A study of Mus musculus with 10 samples.

Results

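The genes described here are 7 core genes of the Hedgehog pathway, Gli1, Gli2, Gli3, Ptch1, Smo, Hhip and Sufu, of the 12393 genes measured on mouse arrays. They were found by gene symbol in the platform annotation and had 12 of the 22626 probe sets that were not controls; a probe set is a group of short probes against 1 messenger RNA. The 7 genes were taken up because the Gli2 signal fell in H1093K cells against delta cells. That fall is therefore a description here and carries no test, and so is every other Gli2 difference that uses the delta or H1093K arrays. The other 6 genes were not tested between H1093K and delta either. Of the 12 probe sets, 7 had a mean signal above the filter of 103.5 and were tested: 2 of Gli2, 2 of Smo and 1 each of Gli3, Ptch1 and Sufu. The probe sets of Gli1 and Hhip were below it, as were a further one of Ptch1 and a further one of Sufu.

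The cells were fibroblasts from mouse embryos, the connective tissue cells that grow out in culture, and each of 5 groups had 2 arrays. Fibroblasts of 4 groups lacked G9a, the histone H3 lysine methyltransferase encoded by Ehmt2, and differed in what was put back. Delta cells carried an empty vector, WT cells FLAG-tagged wild-type G9a, K165A cells FLAG-G9a with the K165A substitution, and H1093K cells FLAG-G9a H1093K, a catalytic mutant per the labels. The fifth pair of arrays is titled deleted, and no vector is named for it. The promoter of the vectors, and whether each group was 1 clone or a pool of cells, are not given in the sources used here. Ehmt2 itself (1460692_at) read 444 ± 41.0 in delta, 648 ± 39.4 in WT, 714 ± 14.5 in K165A and 478 ± 23.8 in H1093K (SD, n = 2 for each group). On the arrays labelled deleted it read 1714 ± 50.9 (SD, n = 2), the highest of all groups, which goes against that label. In this probe set H1093K (461 and 494) overlapped with delta (473 and 415), although its cells are said to carry G9a. The dimmer probe set 1426888_at gave 86.1 ± 43.0 for H1093K, 21.8 ± 20.7 for delta, 73.3 ± 45.9 for WT, 134 ± 61.8 for K165A and 204 ± 59.9 for the arrays labelled deleted (SD, n = 2 each), with both H1093K arrays above both delta arrays and overlapping with WT and K165A. Whether the Ehmt2 probes fall inside or outside the sequence that was removed is not known here. All differences that use that pair are therefore between the arrays labelled deleted and the others.

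Hedgehog proteins are secreted signals that pattern the embryo. They bind the membrane protein Patched, which otherwise holds back Smoothened; once free, Smoothened acts in the primary cilium, the antenna-like organelle that most fibroblasts carry, and stops the GLI transcription factors from being held by Sufu and cut to repressors. Gli1, Ptch1 and Hhip are classical target genes of the pathway and are often read as its output, and cultured embryonic fibroblasts are a standard cell for its study.

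Of the 7 genes, 6 had a start site in the promoter table from RefSeq (build GRCm38.p6), and the 250 bases before the start of Gli2 and Smo are shown because these were the genes whose differences passed the test. The Gli2 window is chr1:119053620-119053869 on the minus strand and the Smo window chr6:29735247-29735496 on the plus strand. Both are written 5′ to 3′ on the strand of the gene, and capitals mark each CCACCC, the core of the GLI recognition motif, on either strand.
Gli2: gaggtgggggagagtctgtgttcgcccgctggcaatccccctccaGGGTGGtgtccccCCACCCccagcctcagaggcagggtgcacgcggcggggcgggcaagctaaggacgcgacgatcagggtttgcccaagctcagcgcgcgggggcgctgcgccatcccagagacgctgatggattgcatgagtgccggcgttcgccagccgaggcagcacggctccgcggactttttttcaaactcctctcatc
Smo: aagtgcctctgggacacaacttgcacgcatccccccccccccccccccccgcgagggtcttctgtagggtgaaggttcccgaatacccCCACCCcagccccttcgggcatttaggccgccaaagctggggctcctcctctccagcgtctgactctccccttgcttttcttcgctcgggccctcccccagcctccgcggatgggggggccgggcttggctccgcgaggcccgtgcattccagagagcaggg

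The Gli2 window held the core 2 times and was 67.2% G and C, and the Smo window held it 1 time and was 68.4% G and C, where the median of all 32851 windows of that length was 52.4%. The core was found in the windows of 4 of the 6 genes, Gli2, Gli3, Hhip and Smo, and in 28.1% of all windows. The full GLI motif GACCACCCA, which holds the core within it, was in 0 of the 6 windows and in 0.225% of all windows, with both strands searched. With 1 mismatch allowed it was again in 0 of the 6, against 5.79% of all windows. These are matches of letters in a short window and do not show binding.

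Gli2, the main activator among the GLI factors, was the gene of the family with the widest range between the groups on the log2(signal + 16) scale. Its brighter probe set (1459211_at) read 184 and 154 on the delta arrays, 248 and 304 on the WT arrays, and 278 and 253 on the K165A arrays. It read 68.3 and 61.1 on the H1093K arrays and 413 and 432 on the arrays labelled deleted. The 2 H1093K arrays were thus below all others, the 2 arrays labelled deleted were above all others, and only WT and K165A overlapped. The group means ran from 64.7 ± 5.13 in H1093K to 169 ± 21.4 in delta, 266 ± 18.0 in K165A, 276 ± 39.6 in WT and 423 ± 13.4 on the arrays labelled deleted (SD, n = 2 each). On the log2(signal + 16) scale, used for every difference and fold here, H1093K was 1.19 lower than delta, or 2.29-fold, which is the difference that chose these genes. The same scale put WT 0.66 and K165A 0.61 above delta, and H1093K at -1.85 against WT (3.60-fold) and K165A at 1.80 above H1093K (3.49-fold), all without a test. In bulk RNA, fewer cells of a type and less RNA per cell cannot be told apart.

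The second Gli2 probe set (1446086_s_at, whose suffix marks probes shared by several transcripts) was dimmer and noisier. It read 128 and 75.4 in delta, 127 and 110 in WT, 147 and 87.8 in K165A, 68.7 and 33.4 in H1093K and 194 and 158 on the arrays labelled deleted. Its groups came in the same order as those of the first probe set, with H1093K lowest at 51.0 ± 25.0 and the arrays labelled deleted highest at 176 ± 25.1 (SD, n = 2 each). Here K165A overlapped with both delta and WT. The untested log2 differences were -0.83 for H1093K against delta, 0.23 for WT against delta, 0.18 for K165A against delta, -1.06 for H1093K against WT and 1.01 for K165A against H1093K.

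**Figure D1:**
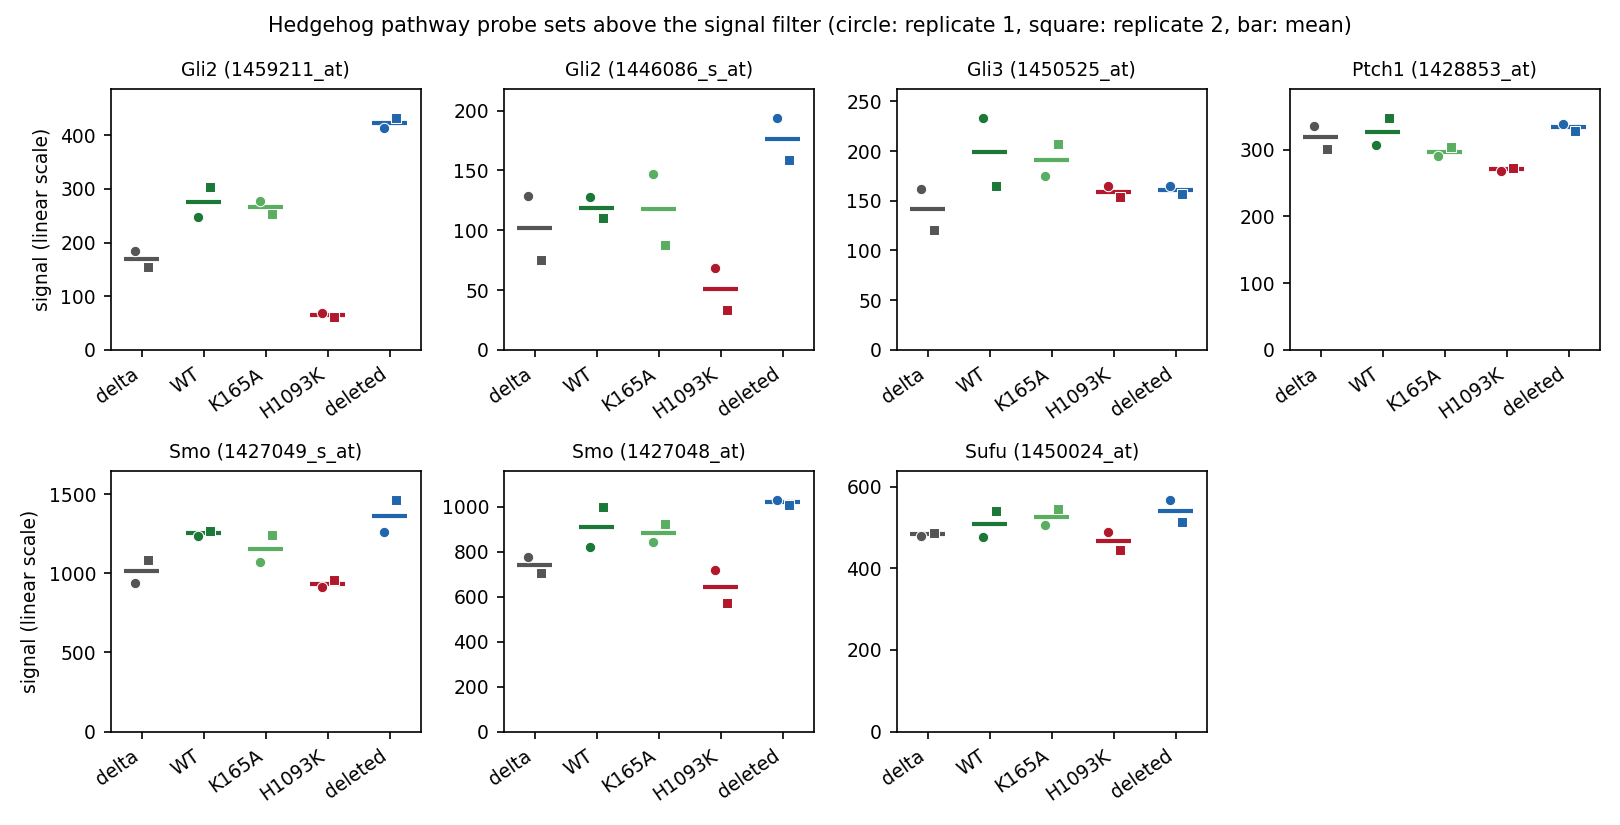
Signal on a linear scale (y axis) of the 7 Hedgehog probe sets above the filter in the 5 groups (x axis). Circles are replicate 1, squares replicate 2 and bars the mean of 2 arrays; the Gli2 panels run from 64.7 (1459211_at) and 51.0 (1446086_s_at) in H1093K to 423 and 176 on the arrays labelled deleted, while Sufu stays between 467 and 541.

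Gli3, which serves mainly as a repressor once cut, read 162 and 121 in delta, 233 and 164.6 in WT, 174 and 207 in K165A, 164.5 and 154 in H1093K and 165.1 and 156 on the arrays labelled deleted (1450525_at). The arrays of most groups lay among each other, and replicates of WT differed as much as the groups did. Its log2 difference of WT from delta was 0.44 (95% interval 0.01 to 0.88, limma adjusted p = 0.182), and in none of the 8 tested comparisons did it pass the adjusted threshold of 0.05. Both H1093K arrays lay below all WT and K165A arrays for Gli3 and overlapped with delta: the log2 difference from WT was -0.28 (95% interval -0.71 to 0.16, limma adjusted p = 0.479), and that from delta, untested, was 0.17. Gli1 (1449058_at), an activator and a direct target of the pathway, read between 25.0 and 68.5 over the 10 arrays, with the lowest value in WT replicate 2 and the highest in K165A replicate 1. It was below the filter, and no order of its groups is read.

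Smo, the transducer that the pathway's ligands set free, had 2 bright probe sets whose group means came in the same order as those of Gli2. The first (1427048_at) read 777 and 705 in delta, 823 and 1001 in WT, 843 and 924 in K165A, 717 and 574 in H1093K and 1032 and 1010 on the arrays labelled deleted. The second (1427049_s_at) read 938 and 1087 in delta, 1236 and 1268 in WT, 1073 and 1240 in K165A, 914 and 958 in H1093K and 1260 and 1465 on the arrays labelled deleted. In both, all H1093K arrays lay below all WT and K165A arrays, and H1093K and delta overlapped. Ranked by their means, each group overlapped with the next in 1427049_s_at, and WT and K165A overlapped in 1427048_at too, so the arrays do not settle the order. The range was much narrower than that of Gli2: group means ran from 646 ± 101 to 1021 ± 15.2 in the first and from 936 ± 31.4 to 1362 ± 145 in the second (SD, n = 2 each).

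Ptch1, the receptor that holds Smo back, read 336 and 301 in delta, 307 and 348 in WT, 290 and 305 in K165A, 269 and 273 in H1093K and 339 and 328 on the arrays labelled deleted (1428853_at). H1093K was lowest, with both arrays below all others. Its other probe set (1450824_at) read 6.09 to 13.5 and was not tested. Hhip, a membrane protein that binds and removes ligand, was dim in both of its probe sets, at 1.41 to 18.2 (1421426_at) and 0.338 to 12.2 (1438083_at). Of the 3 classical output genes, Ptch1 was thus the only one above the filter.

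Sufu, the cytoplasmic inhibitor that holds GLI proteins, was the steadiest of the tested genes on the log2 scale. It read 480 and 486 in delta, 477 and 539 in WT, 505 and 545 in K165A, 488 and 446 in H1093K and 568 and 514 on the arrays labelled deleted (1450024_at). Ranked by their means, from H1093K through delta, WT and K165A to the arrays labelled deleted, each group overlapped with the next. No tested difference passed the threshold. The tested log2 differences ran from -0.12 (95% interval -0.35 to 0.11) for H1093K against WT to 0.16 (-0.06 to 0.39) for K165A against H1093K. Its other probe set (1420848_at) read 50.5 to 94.2, below the filter.

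**Figure D2:**
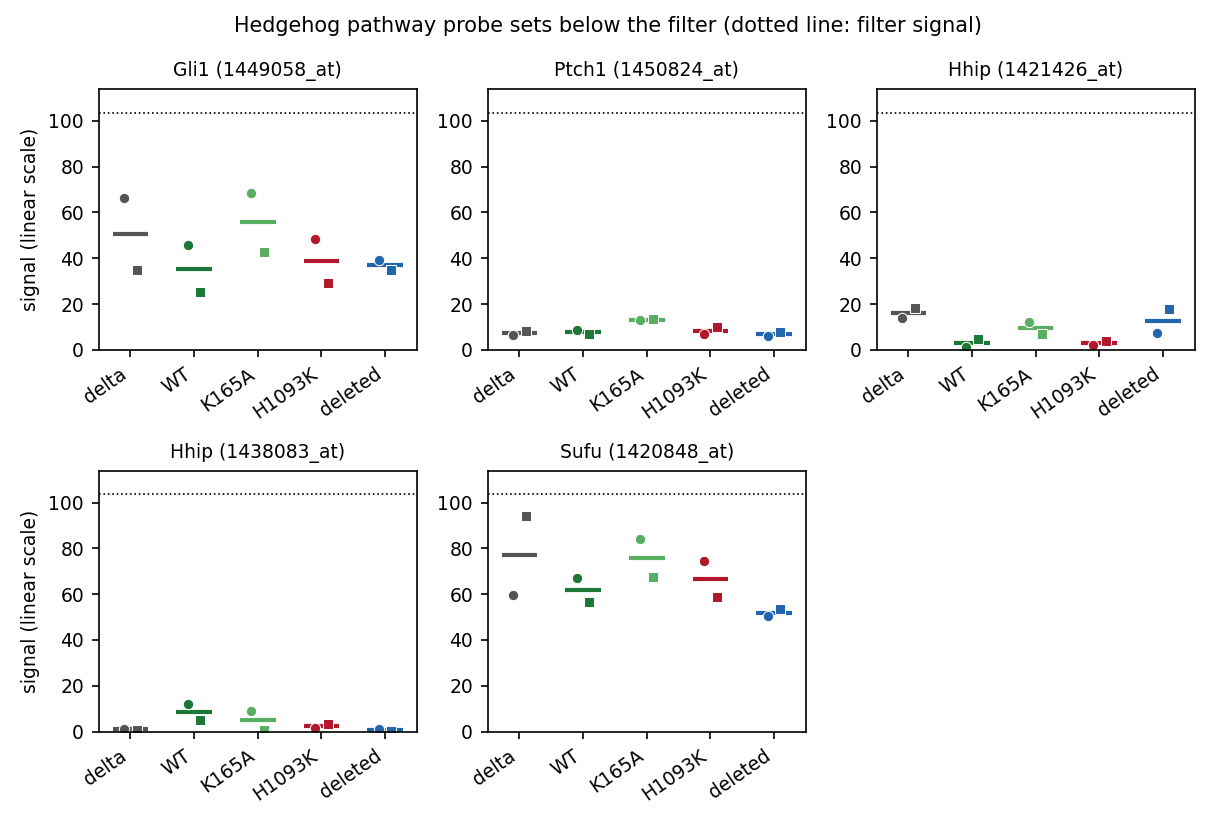
Signal on a linear scale (y axis) of the 5 Hedgehog probe sets below the filter, in the 5 groups (x axis), with circles for replicate 1, squares for replicate 2, bars for the mean and a dotted line at the filter of 103.5. Gli1 reached 68.5 at most, and the Hhip probe sets 18.2 and 12.2.

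Whether restored G9a moved the pathway was asked by WT and K165A against delta. Among the 4 genes tested there (Gli3, Ptch1, Smo and Sufu), 0 passed in either comparison. Over all 13576 probe sets limma called 5.58% higher and 6.68% lower in WT than in delta, and 5.13% higher and 6.47% lower in K165A. At such shares 0 calls among 4 genes does not set them apart from the other probe sets, and Gli2 was not tested here. In the 3 comparisons with delta the same 2 delta arrays are the reference. The Smo log2 differences of WT from delta were 0.29 (95% interval 0.01 to 0.57, limma adjusted p = 0.175) and 0.31 (0.07 to 0.54, limma adjusted p = 0.0964) for 1427048_at and 1427049_s_at. The latter passed with the replicate number as a block (limma adjusted p = 0.0105). For K165A against delta they were 0.25 (limma adjusted p = 0.251) and 0.19 (limma adjusted p = 0.310). Ptch1 differed from delta by 0.04 in WT (-0.22 to 0.29, limma adjusted p = 0.889) and by -0.09 in K165A (limma adjusted p = 0.675). The Ptch1 value for WT turned to -0.050 without WT replicate 2.

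Whether the K165A substitution mattered was asked by K165A against WT. For Gli2, which this comparison leaves free to test, the log2 difference was -0.05 (95% interval -0.38 to 0.29, limma adjusted p = 0.9999) in 1459211_at. An interval of this width does not show that the groups were alike. None of the 5 genes passed. Over all probe sets limma called 0% higher and 0% lower, with 433 probe sets at an unadjusted p under 0.05 and a smallest adjusted p of 0.430. Smo differed by -0.04 and -0.12 in 1427048_at and 1427049_s_at, Gli3 by -0.04, Ptch1 by -0.13 and Sufu by 0.05.

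The catalytic mutant was set against wild-type G9a and against K165A. Smo was lower in H1093K than in WT in both probe sets, by -0.49 ± 0.12 (SE; 95% interval -0.77 to -0.21, 1.404-fold, limma adjusted p = 0.0402) in 1427048_at and by -0.41 ± 0.11 (SE; -0.65 to -0.18, 1.33-fold, limma adjusted p = 0.0408) in 1427049_s_at. This made 1 of the 4 tested genes lower and 0 higher, where limma called 4.13% of all probe sets lower and 4.25% higher in H1093K. The other 3 did not pass: Ptch1 was at -0.26 (-0.51 to -0.003, limma adjusted p = 0.231), Gli3 at -0.28 and Sufu at -0.12. The Smo calls sat close to the threshold: without WT replicate 2 the adjusted p was 0.215 in 1427048_at and 0.157 in 1427049_s_at, without H1093K replicate 2 it was 0.230 and 0.113, and 1427049_s_at also lost its call without WT replicate 1 (0.156) or H1093K replicate 1 (0.203). The call of 1427048_at was also lost without K165A replicate 1 (0.0518) or 2 (0.0520), deleted replicate 1 (0.0617) or 2 (0.0618), with no filter (0.0646), with no intensity trend (0.0716), with only the arrays compared (0.0581) and without both deleted arrays (0.0619), and that of 1427049_s_at with median centring (0.0700), no filter (0.0649) or no intensity trend (0.0789).

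In K165A against H1093K, which uses the same 2 H1093K arrays, 0 of the 4 genes passed, and limma called 3.66% of all probe sets higher and 4.04% lower in K165A. Smo was 0.45 higher in K165A in 1427048_at (95% interval 0.17 to 0.73, limma adjusted p = 0.0594) and 0.30 in 1427049_s_at (limma adjusted p = 0.139). With the replicate number as a block both passed, at limma adjusted p of 0.0284 and 0.0167; 1427048_at also passed with quantile normalization (0.0399) and without H1093K replicate 1 (0.0364). Gli3 differed by 0.24, Ptch1 by 0.13 and Sufu by 0.16, and none of these passed.

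**Figure D3:**
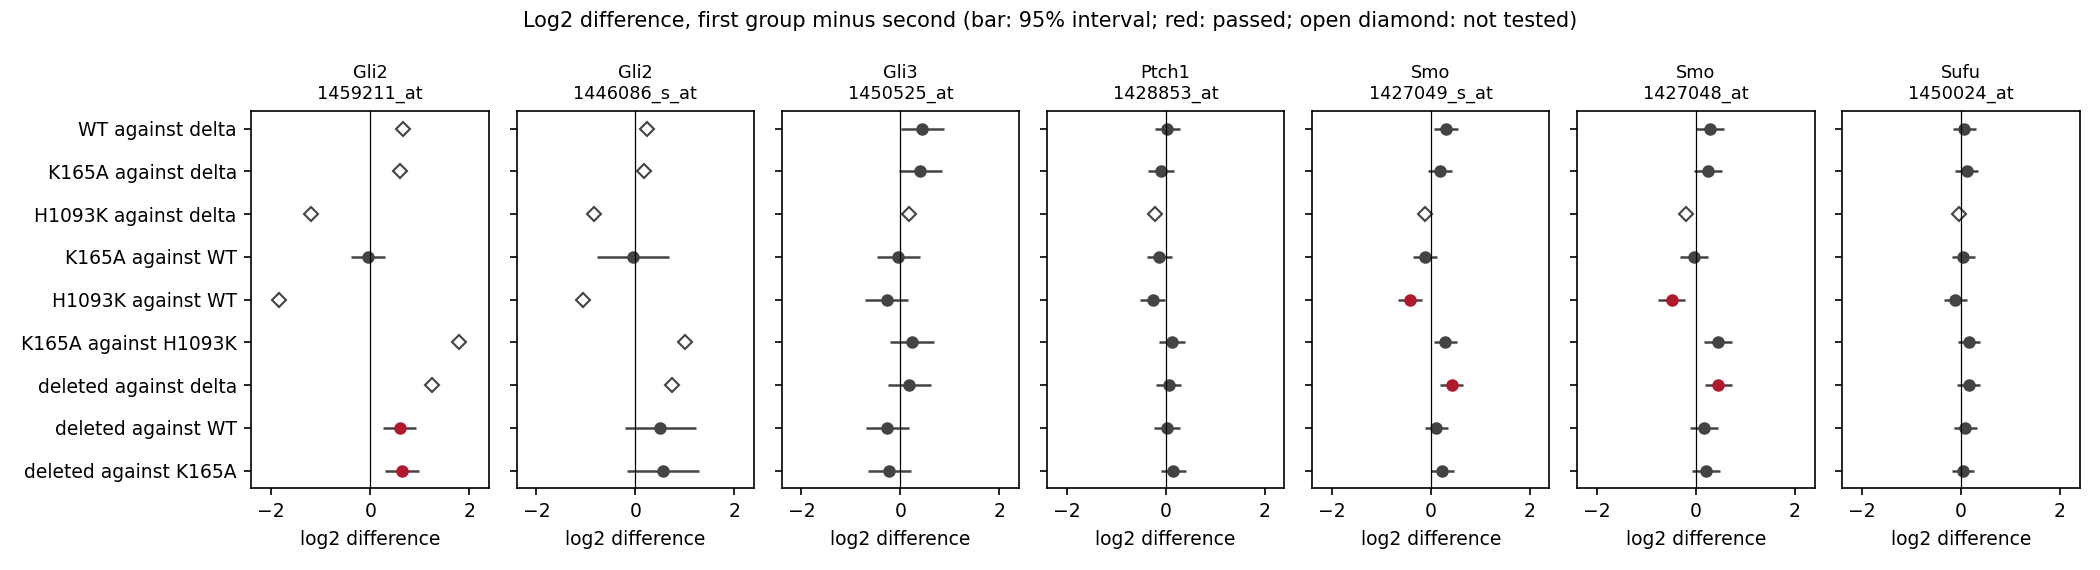
Log2 difference, first group minus second (x axis), of each tested Hedgehog probe set in 9 comparisons (y axis), with 95% intervals as bars. Red points passed the limma adjusted threshold of 0.05, grey points did not, and open diamonds were not tested; the red points are Gli2 (1459211_at) in the arrays labelled deleted against WT and K165A, and Smo in H1093K against WT and where the arrays labelled deleted are set against delta.

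Gli2 could be tested in 3 comparisons and was higher in the 2 that use the arrays labelled deleted. Against WT, 1459211_at was 0.59 ± 0.15 higher (SE; 95% interval 0.26 to 0.93, 1.51-fold, limma adjusted p = 0.0134), and against K165A 0.64 higher (0.30 to 0.98, 1.56-fold, limma adjusted p = 0.00929). The second probe set differed by 0.51 (-0.22 to 1.23, limma adjusted p = 0.264) and 0.56 (-0.17 to 1.28, limma adjusted p = 0.222), and did not pass. With the replicate number as a block, the limma adjusted p of its difference from K165A was 0.0359. This probe set was above the filter of 103.5 only through the arrays labelled deleted, since the other 8 averaged 97.3, so no call that it is higher there is read from it. The calls of 1459211_at depended on single arrays: against WT the adjusted p was 0.104 without WT replicate 1, 0.0535 without deleted replicate 1 and 0.0763 without deleted replicate 2, and against K165A it was 0.0566 without K165A replicate 2 and 0.0599 without deleted replicate 2.

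Gli2 was the 1 gene of 5 that passed in each of these comparisons, as higher, and 0 were lower; limma called 16.2% of probe sets higher and 17.1% lower against WT, and 15.6% higher and 16.8% lower against K165A. Smo passed against delta, by 0.46 (95% interval 0.18 to 0.73, 1.37-fold, limma adjusted p = 0.0182) in 1427048_at and 0.42 (0.19 to 0.66, 1.34-fold, limma adjusted p = 0.0120) in 1427049_s_at, which made 1 of 4 genes higher and 0 lower beside 16.2% of probe sets called higher and 17.6% lower. Both Smo calls against delta were lost without deleted replicate 2 (0.0651 and 0.0987), that of 1427048_at also without deleted replicate 1 (0.0804) or delta replicate 2 (0.100), and that of 1427049_s_at without delta replicate 1 (0.0855). Against WT and K165A, Smo did not pass, except that 1427049_s_at passed against K165A with the block (limma adjusted p = 0.0197). Gli2 was 1.25 above delta (2.38-fold), without a test. Ptch1 differed by 0.07 from delta, 0.03 from WT and 0.16 from K165A, the first and second of which turned to -0.0090 and -0.040 with median centring. Under median centring the share of all calls that were higher fell from 48.0% to 36.6% against delta, from 48.6% to 37.0% against WT and from 48.2% to 38.1% against K165A.

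Markers of other cells were read on the same arrays. The 12 fibroblast markers were all on the array and 11 were above the filter (Lum was not), with a summed signal of 50751 to 65702. Of 6 epithelial markers, 5 were above the filter (Epcam was not), and their sum was 3742 to 4005 in delta, 1049 to 1147 in WT, 939 to 1028 in K165A, 2582 to 2762 in H1093K and 4202 to 4209 on the arrays labelled deleted. Delta, H1093K and the arrays labelled deleted were above WT and K165A in this sum. Of 4 neural markers 1 was above the filter, and the sum was 1063 to 1120 in delta, 838 to 902 in WT, 840 to 890 in K165A, 1194 to 1227 in H1093K and 665 to 674 on the arrays labelled deleted. This sum, in which only Nes was above the filter, was highest in H1093K and lowest on the arrays labelled deleted. Sums were 334.6 to 523.2 for leukocytes (2 of 6 markers above the filter), 192 to 313 for endothelium (1 of 5) and 139 to 262 for skeletal muscle (0 of 4). The part of these markers in the Gli2 and Smo differences was not tested.

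The 5 genes whose log2 signal followed that of Gli2 (1459211_at) most closely over the 10 arrays were Kat7, Abca1, Gtf2i, Prnp and Fam107b, with a Pearson's r of 0.974, 0.966, 0.960, 0.956 and 0.955. They were picked for that likeness from all tested probe sets, and the 10 arrays fall into 5 groups, so r is a description with no p. Abca1, a cholesterol exporter, averaged 94.5 in H1093K, 141 in delta, 212 in WT, 220 in K165A and 258 on the arrays labelled deleted. Kat7, a histone acetyltransferase, covered a narrower range, from 111 in H1093K to 169 on the arrays labelled deleted.

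Beyond the 7 genes, 126 further genes of the pathway were listed by role, of which 94 were on the array and 67 were above the filter, each taken by its brightest probe set. Over the 67, 5 of which were above the filter only through the arrays labelled deleted, 6 rose and 1 fell in WT against delta, 4 rose and 1 fell in K165A against delta, 0 changed in K165A against WT, 0 rose and 5 fell in H1093K against WT, and 4 were higher and 0 lower in K165A against H1093K. On the arrays labelled deleted, 17 were higher and 5 lower than in delta, 15 higher and 8 lower than in WT, and 15 higher and 8 lower than in K165A. The higher counts for these arrays, here and in the closing section, do not leave out those 5 genes, which are all target genes. Without them the target genes called higher went from 9 to 5 against delta, 9 to 5 against WT and 10 to 6 against K165A. The background shares are those given above for each comparison, and they apply to each list below as well. The median log2 difference of WT from delta was 0.07 over the 67 genes and -0.003 over all tested probe sets.

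Ligands were near the floor. Shh read 1.07 to 32.4, Dhh and Ihh were likewise below the filter, and of the 9 ligand and release genes only Hhat, the enzyme that attaches a fatty acid to the ligand, was tested, with 0 calls in the 8 comparisons. Among 3 tested co-receptor genes, Gas1 and Gpc3 changed in 7 of the 8 comparisons and Boc (1427516_a_at) in 0. A dimmer Boc probe set above the filter (1426869_at) read 242 and 248 on the arrays labelled deleted and 145 to 223 on the others. No call is given for it here. Gas1, which binds the ligand at the cell surface and helps it signal, read 1495 and 1552 in delta, 3280 and 3397 in WT, 3260 and 2908 in K165A, 1561 and 1511 in H1093K and 5082 and 5664 on the arrays labelled deleted (1416855_at). H1093K and delta lay at one level, and WT and K165A at a higher one.

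Gas1 rose by 1.12 in WT against delta (2.18-fold, limma adjusted p = 2.46e-05) and by 1.01 in K165A against delta (2.01-fold, limma adjusted p = 4.95e-05). It was 1.11 lower on the log2 scale in H1093K than in WT (2.16-fold, limma adjusted p = 3.87e-05) and 0.996 higher in K165A than in H1093K (1.99-fold, limma adjusted p = 6.76e-05). On the arrays labelled deleted it was 3.50-fold above delta, 1.60-fold above WT and 1.74-fold above K165A. Each of these Gas1 calls was kept under every alternative setting and with each array left out.

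Gpc3, a glypican that binds Hedgehog ligand and competes with Patched, read 677 and 795 in delta, 1633 and 1644 in WT, 1495 and 1639 in K165A, 429 and 493 in H1093K and 974 and 1023 on the arrays labelled deleted (1450990_at). Like Gli2, it was lowest in H1093K, with no overlap with delta. Unlike Gli2, it was highest in WT and K165A, which overlapped. It rose 2.21-fold in WT against delta (limma adjusted p = 6.82e-05) and 2.11-fold in K165A against delta (limma adjusted p = 1.02e-04), and was 3.48-fold lower in H1093K than in WT (limma adjusted p = 9.04e-06) and 3.32-fold higher in K165A than in H1093K (limma adjusted p = 1.25e-05). The arrays labelled deleted were 0.44 above delta (limma adjusted p = 0.00771), 0.71 below WT and 0.64 below K165A on the log2 scale. The difference from delta was lost without deleted replicate 2 (0.0520) or delta replicate 1 (0.0584).

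**Figure D4:**
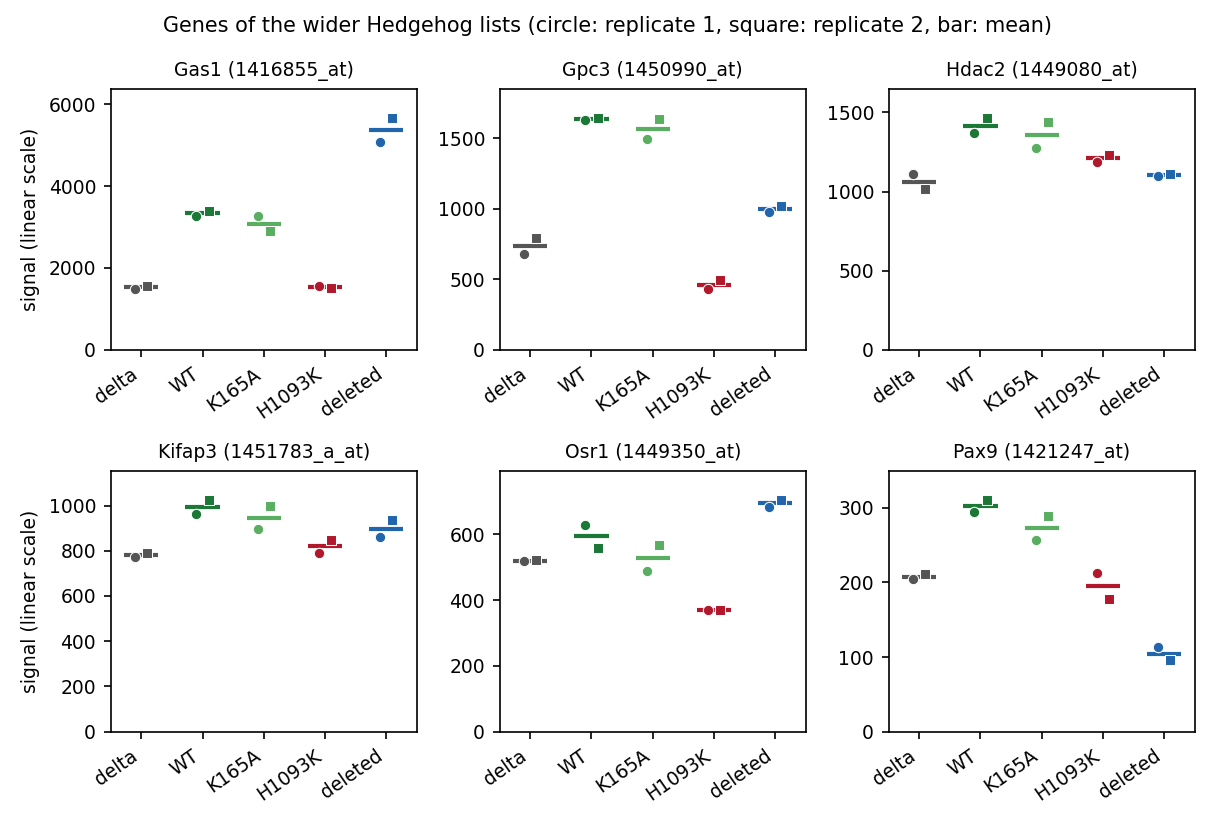
Signal on a linear scale (y axis) in the 5 groups (x axis) of 6 genes of the wider Hedgehog lists, with circles for replicate 1, squares for replicate 2 and bars for the mean. Gas1 and Gpc3 are low in delta (1524 and 736) and H1093K (1536 and 461) and higher in WT (3339 and 1639) and K165A (3084 and 1567).

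Of 28 intracellular regulators, 1 passed in WT and in K165A against delta, and 0 in H1093K against WT and in K165A against H1093K. It was Hdac2, a histone deacetylase that removes acetyl groups from GLI1 and GLI2, which read 1112 and 1013 in delta, 1368 and 1464 in WT and 1277 and 1439 in K165A (1449080_at). The rises were 1.33-fold (limma adjusted p = 0.0119) and 1.27-fold (limma adjusted p = 0.0255). The rise in WT was lost without WT replicate 2 (0.0847) or delta replicate 2 (0.0837), and that in K165A without K165A replicate 2 (0.147) or delta replicate 2 (0.154). On the arrays labelled deleted 3 regulators were higher and 2 lower than in delta, 3 higher and 3 lower than in WT, and 2 higher and 3 lower than in K165A. The shares of all probe sets called on those arrays were 16.2%, 16.2% and 15.6% higher and 17.6%, 17.1% and 16.8% lower.

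The regulators named there were Rab23, a GTPase that restrains the pathway, lower against delta (-0.52, limma adjusted p = 0.00195) and K165A (-0.36, limma adjusted p = 0.0142), and Hspb11 (also Ift25), which carries pathway proteins out of the cilium, higher against WT (0.56, limma adjusted p = 0.00583) and K165A (0.59, limma adjusted p = 0.00418). Hspb11 lost its call against WT without deleted replicate 1 (0.0521). Prkacb and Prkar1a, subunits of the kinase that starts the cutting of GLI proteins, were higher against delta (0.53 and 0.27), although a second Prkar1a probe set was at -0.05. The Prkacb call was lost without deleted replicate 2 (0.0677), and that of Prkar1a with each of the 4 arrays left out in turn (0.0699 to 0.0832) and with median centring (0.0891). Hdac2 was lower than in WT (-0.35) and K165A (-0.29), and both calls were lost without deleted replicate 1 (0.0544 and 0.103). Against WT the Hdac2 call was lost without WT replicate 2 (0.0680) too, and against K165A without deleted replicate 2 (0.0842) or K165A replicate 2 (0.150) or with only the arrays compared (0.0523). Dyrk1a, a kinase of GLI1, was lower than in WT (-0.42), a call lost without deleted replicate 1 (0.0588), and 2 further Dyrk1a probe sets were at -0.21 and 0.06 and did not pass. The Rab23 call against K165A was lost without K165A replicate 1 (0.0853) or deleted replicate 2 (0.0895). A second Rab23 probe set had the same sign and did not pass (-0.34 and -0.30).

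Of 19 cilium genes, 1 passed in WT against delta and 0 in K165A against delta, in H1093K against WT and in K165A against H1093K. It was Kifap3, a subunit of the motor that builds the cilium, at 1.27-fold (limma adjusted p = 0.0301); the call was lost with each of the 4 arrays left out in turn (0.0805 to 0.155), with median centring (0.0527), with no intensity trend (0.0561) and with only the arrays compared (0.0602). On the arrays labelled deleted, 3 cilium genes were higher and 1 lower than in delta, and 2 higher and 2 lower than in WT and in K165A. Of all probe sets, 16.2%, 16.2% and 15.6% were called higher and 17.6%, 17.1% and 16.8% lower against delta, WT and K165A. Ift74 and Ift81, which pair in the carrier that brings tubulin into the cilium, went in opposite directions: Ift74 was 1.72-fold below delta, 1.64-fold below WT and 1.89-fold below K165A, and Ift81 (1419286_s_at) 1.44-fold, 1.37-fold and 1.43-fold above them. The Ift74 calls were kept under every alternative. Those of Ift81 were lost without deleted replicate 1 (0.0592, 0.0984 and 0.0639) or 2 (0.0535, 0.0876 and 0.0583), that against delta also without delta replicate 1 (0.0570), that against WT without WT replicate 1 (0.183) or with median centring (0.0548), and that against K165A without K165A replicate 1 (0.0997). A second Ift81 probe set was higher by 0.16, 0.14 and 0.23 and did not pass.

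Kif3a, the motor itself, was lower against WT (-0.39, limma adjusted p = 0.0105) and K165A (-0.33, limma adjusted p = 0.0233) in 1449841_at. A second Kif3a probe set was at -0.10 in both comparisons. The call against WT was lost without WT replicate 2 (0.0512) or deleted replicate 1 (0.0661), and that against K165A without K165A replicate 2 (0.124) or deleted replicate 1 (0.116) or 2 (0.0667) and with only the arrays compared (0.0694). Ift46 was 0.30 above delta (limma adjusted p = 0.0192), a call lost without deleted replicate 2 (0.144) or delta replicate 2 (0.0940), with median centring (0.0704) and with only the arrays compared (0.0559).

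Among 15 tested genes listed as Hedgehog targets, 2 rose and 1 fell in WT against delta, 1 rose and 1 fell in K165A against delta, 3 were lower and 0 higher in H1093K against WT, and 2 were higher and 0 lower in K165A against H1093K. In these 4 comparisons 3.66% to 5.58% of all probe sets were called higher and 4.04% to 6.68% lower. Many of the target genes answer to other pathways too. Bmp4, a growth factor of the BMP family, read 82.2 and 107 in delta, 623 and 739 in WT, 577 and 507 in K165A, 153 and 172 in H1093K and 1735 and 1753 on the arrays labelled deleted. It was 6.32-fold higher in WT and 5.07-fold higher in K165A than in delta (limma adjusted p = 3.95e-06 and 4.74e-06), 3.89-fold lower in H1093K than in WT and 3.12-fold higher in K165A than in H1093K (limma adjusted p = 2.99e-05 and 6.64e-05). Its calls were kept under every alternative.

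Ccnd2, a G1 cyclin, went the other way and fell 1.86-fold in WT and 1.92-fold in K165A against delta (limma adjusted p = 1.79e-04 and 1.34e-04), from 593 and 640 in delta to 346 and 303 in WT and 311 and 314 in K165A (1416122_at). Among its other probe sets, 1455956_x_at was at -0.66 and -0.71 and did not pass. Osr1, a mesoderm transcription factor, was 1.57-fold lower in H1093K than in WT (limma adjusted p = 0.00265) and 1.403-fold higher in K165A than in H1093K (limma adjusted p = 0.0151). The latter call was lost without H1093K replicate 1 (0.0803) or 2 (0.0788) or K165A replicate 2 (0.0978) and with only the arrays compared (0.0761). Pax9, a transcription factor of skeletal and tooth precursors, rose 1.43-fold in WT against delta (limma adjusted p = 0.0476) and was 1.51-fold lower in H1093K than in WT (limma adjusted p = 0.0331). Its rise was lost with each of the 10 arrays left out in turn (0.0543 to 0.183), and its lower level in H1093K with each of the 4 arrays compared left out in turn (0.0616 to 0.196). Both were also lost with no filter (0.0842 and 0.0632) and with only the arrays compared (0.0684 and 0.05003), and the rise with a pseudocount of 1 (0.0521) and without both deleted arrays (0.0504). A second Pax9 probe set did not pass (0.44 and -0.26).

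On the arrays labelled deleted, 5 of the 15 target genes (Grem1, Igf2, Sfrp1, Tbx3 and Wnt5a) were above the filter only through these arrays, so they had to be high there and support nothing. Of the other 10 genes, 5 were higher and 1 lower than in delta, 5 higher and 2 lower than in WT, and 6 higher and 2 lower than in K165A; their median log2 differences were 0.41, 0.41 and 0.53. Of all probe sets, 16.2%, 16.2% and 15.6% were called higher and 17.6%, 17.1% and 16.8% lower in these comparisons. Over all 15 target genes the medians were 0.70, 1.101 and 1.15, where all tested probe sets had medians of -0.01, -0.01 and -0.02. Bmp4 was 16.03-fold above delta there. Ccnd2 was 4.05-fold above delta, 7.53-fold above WT and 7.79-fold above K165A. These Bmp4 and Ccnd2 calls were kept under every alternative. As a description with no test, Wnt5a, a secreted Wnt ligand, read 402 and 439 on these arrays and 62.6 to 107 on the other 8 (1436791_at). Sfrp1, a secreted Wnt antagonist, read 772 and 732 on these arrays and 5.73 to 19.3 on the other 8 (1460187_at). Among the GLI-related zinc fingers only Glis2 was tested, and it was 0.35 below delta on the log2 scale (limma adjusted p = 0.0152), a call lost without deleted replicate 2 (0.0862) or delta replicate 2 (0.116). The second Glis2 probe set was at -0.27 and did not pass.

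**Figure D5:**
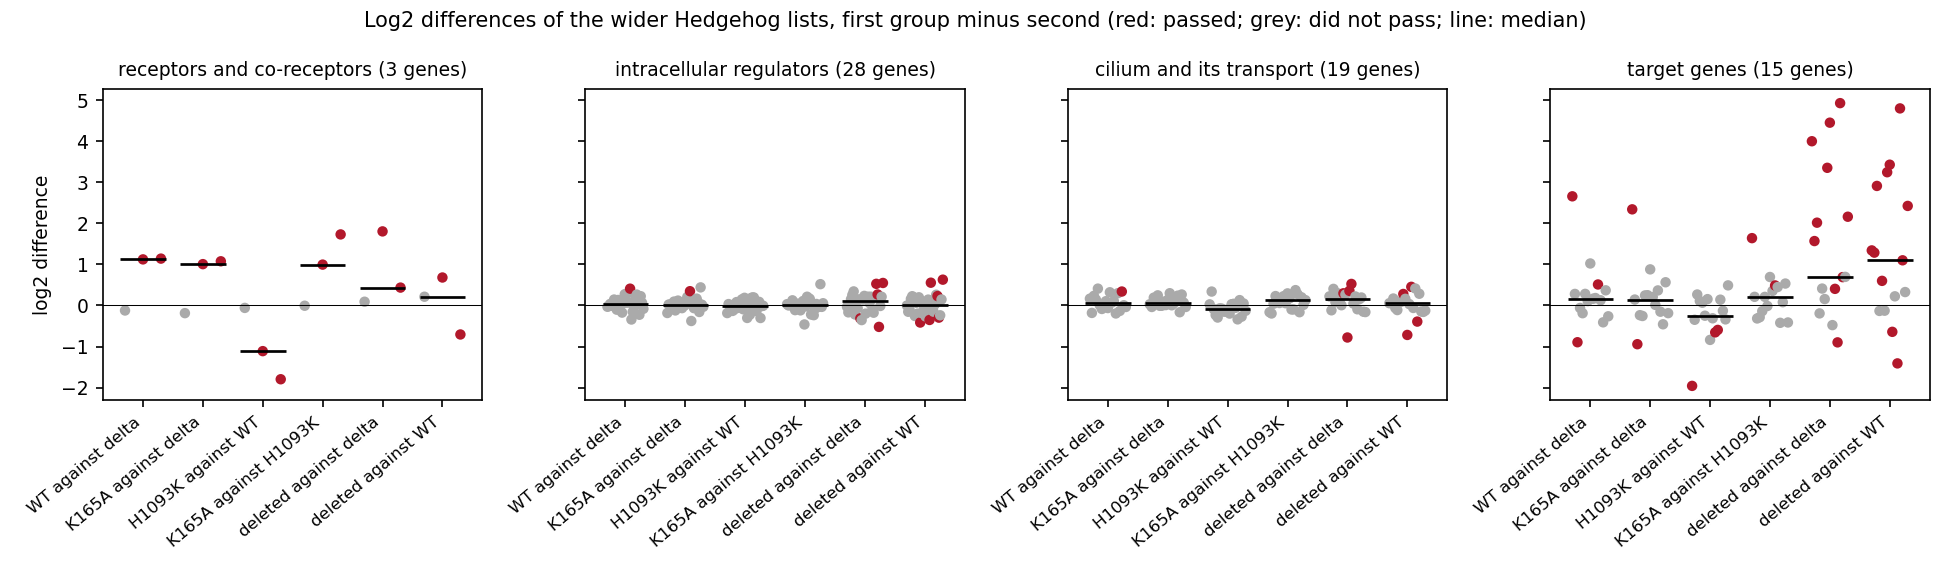
Log2 difference, first group minus second (y axis), of each tested gene of 4 wider Hedgehog lists in 6 comparisons (x axis), with red points for genes past the limma adjusted threshold of 0.05, grey points for the others and black lines for the list's median. The medians of regulators and cilium genes stay between -0.09 and 0.15, and that of target genes, 5 of which were above the filter only through the arrays labelled deleted, reaches 0.70 and 1.101 where the arrays labelled deleted are set against delta and WT.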

How the data were processed

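Messenger RNA of mouse embryonic fibroblasts was measured on Affymetrix arrays, 2 in each of 5 groups taken from the sample titles. The authors deposited unlogged signal intensities from GCOS 1.4, per the submitters' processing notes. The mean signal trimmed by 2% was 500.1 to 500.2 on every array, so no scaling was added; median signals were 181 to 199, and arrays of a group correlated at 0.983 to 0.989. The number of arrays limits the precision. No label ties the arrays of a group to separate cultures, so the p-values cover the spread from array to array alone, which may be technical.

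Of 22690 probe sets, 64 controls were left out. The platform annotation, with symbols updated through the RefSeq gene table of GRCm38.p6, gave 20380 a single gene, 691 several and 1555 no gene. A filter at the 40th percentile of mean signal kept 13576. In R 4.3.3, limma 3.58.1 (lmFit, then trended eBayes) modelled log2(signal + 16) over all 10 arrays with 1 mean per group (5 residual degrees of freedom, prior 4.69). Each of 8 comparisons used a Benjamini-Hochberg adjusted p of 0.05 over all 13576. Folds understate the change of dim probe sets. An exact permutation test of 2 arrays against 2 cannot give a two-sided p under 0.333 and was not used.

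The 7 genes, the wider lists and the tests were chosen with earlier results of these data known. The text names every probe set of the 7 genes, Ehmt2, the 5 genes most like Gli2, and for each wider list up to 3 genes of smallest p among those that passed in a comparison; other probe sets, and the genes of lists with no call, were named after their values were seen. Same-numbered arrays of all 10 pairs of groups deviated together from their group means (correlations 0.229 to 0.509). The titles' numbers were therefore taken as pairs for the replicate block, although no label says what same-numbered arrays share. The main fit did not use this pairing. The alternatives were a pseudocount of 1 or 64, no filter or a 60th percentile filter, median centring, quantile normalization, only the arrays compared, no deleted arrays, no intensity trend, the replicate block, and each array left out. Those for the wider lists and for all probe sets were chosen after seeing the data. The fit was checked on simulated data.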

Additional observations from a re-analysis of the deposited data

How the results depend on the processing

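In WT against delta and in K165A against H1093K, 4 of the 7 genes were tested (Gli3, Ptch1, Smo and Sufu). In the main fit 0 of these 4 passed in either comparison, and adding the block raised this to 1 in each (Smo). The block was not the only alternative to do so in K165A against H1093K. There the Smo probe set 1427048_at also passed with quantile normalization (limma adjusted p = 0.0399), and in a fit with an array left out that is given beside its result. The arrays labelled deleted against K165A went from 1 gene to 2 with the block (Gli2, joined by Smo), and the wider genes called rose from 7 to 11 (WT against delta), 5 to 9 (K165A against delta) and 4 to 7 (K165A against H1093K). Beyond these and the Gli2 value given beside its result, the block changed no other call of the 7 genes. The 1 gene in H1093K against WT (Smo) became 0 with no filter or no intensity trend, where both of its probe sets lost their call. With median centring the count also became 0 by 1427049_s_at, while 1427048_at kept its call. The 1 gene in the arrays labelled deleted against WT and against K165A became 0 with the 60th percentile filter, which leaves Gli2 out. With 1 array left out, 0 to 1 of the tested genes passed in H1093K against WT and in the arrays labelled deleted against delta, WT and K165A.

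With 1 array left out, the wider counts ranged over 4 to 7 (WT against delta; 4 without WT replicate 2 or delta replicate 2), 12 to 23 (arrays labelled deleted against delta; 12 without deleted replicate 2), 13 to 24 (against WT; 13 without deleted replicate 1) and 13 to 23 (against K165A; 14 without deleted replicate 1 and 13 without deleted replicate 2). Of 55 calls of wider genes named by the rule, 34 were kept under every alternative in which the gene was tested, among them those of Sfrp1 and Wnt5a, which were above the filter only through the arrays labelled deleted.

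A difference changed sign in 22 cases, of which 0 passed the threshold either way. Ptch1 on the arrays labelled deleted was -0.0090 against delta and -0.040 against WT with median centring, and -0.0099 against WT with quantile normalization; Sufu against K165A was -0.019 with median centring. With 1 array left out, K165A against WT ranged from -0.19 to 0.092 (Gli2 1459211_at), -0.37 to 0.28 (Gli2 1446086_s_at), -0.27 to 0.19 (Gli3), -0.18 to 0.10 (Smo 1427048_at) and -0.038 to 0.13 (Sufu). WT against delta ranged from -0.050 to 0.12 (Ptch1) and -0.018 to 0.15 (Sufu). The arrays labelled deleted ranged from -0.0071 to 0.37 (Gli3) and -0.011 to 0.14 (Ptch1) against delta, -0.056 to 0.11 (Ptch1) against WT and -0.028 to 0.11 (Sufu) against K165A. The cause of these changes was not tested.

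Over all probe sets the block raised the calls from 1664 to 2863 (WT against delta), 1576 to 2719 (K165A against delta), 1138 to 1997 (H1093K against WT) and 1046 to 1898 (K165A against H1093K), and fitting only the arrays compared lowered K165A against delta to 832. The filter leaves Gli1 and Hhip unmeasured for these comparisons, and at 2 arrays a group the intervals of the dimmer Gli2 and Gli3 probe sets are wide.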
